A study of Mus musculus with 12 samples.

Results

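Mouse embryonic stem cells kept in fetal calf serum and LIF on feeder cells were compared with cells kept in 2i and LIF on gelatin, in 8 of the 12 total RNA libraries of the series. The comparison takes the 6 libraries of a BRE-GFP line, which carries GFP under a BMP response element (3 GFP-negative and 3 GFP-positive, of mixed CBA and C57Bl/6 strain), against 2 libraries of cells with floxed Smad1 and Smad5 alleles that had not been deleted (FL 1 and FL 2, of mixed CD-1, 129/Ola and C57Bl/6 strain). The 4 libraries of Smad1/5 knockout cells, which were also kept in 2i, were left out. Before RNA was taken the reporter cells went through a cell sorter gated on GFP and SSEA1, a surface sugar of stem cells, and each GFP-negative library has a GFP-positive partner from the same of 3 collections. For the FL libraries no sort is recorded, and the series states that they represent 2 parental lines, with 1 FL library from each. Medium, feeders, cell line, strain, transgene, floxed alleles and sorting all differ between the 2 sets and cannot be told apart. The words "serum" and "2i" below therefore name the 2 sets of libraries, and a gene that rose was higher in serum.

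Serum with LIF keeps embryonic stem cells in a mixed state, in which serum factors and autocrine FGF activate ERK while LIF acts through STAT3 and BMP through SMAD proteins. The 2i medium holds an inhibitor of MEK, the kinase that activates ERK, and an inhibitor of GSK3, the kinase that marks β-catenin for destruction. Cells in 2i are widely used as a model of the naive epiblast and are known for low DNA methylation. In bulk RNA, fewer cells of a type and less RNA per cell cannot be told apart.

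The libraries held 25862573 to 37079106 counts in serum, and 33272807 and 35736653 in 2i. The median absolute log2 difference over 11898 genes was 0.13 between the sorted fractions of a collection, 0.21 between collections, 0.12 between the FL libraries and 0.44 between a serum and an FL library. The counts of the 2 fractions were summed per collection, so that 3 collections were set against 2 FL libraries. edgeR's quasi-likelihood test at an adjusted p under 0.05 called 8507 of 17552 genes tested, which is 48.5%. Of these, 4179 (23.8%) were higher and 4328 (24.7%) lower in serum, with a median absolute log2 fold change of 1.11 among the called genes. A fold change of over 2 was reached by 26.5% of the genes tested, namely by 2398 of the higher genes (13.7% of all tested) and by 2254 of the lower genes (12.8%). Without FL 1 the test called 2558 higher and 2802 lower, and without FL 2 it called 2574 and 2802. The libraries are called biological replicates, but separate cultures are not described, so the tests read only how much these libraries vary, part of which may be technical. The shares over all genes are the background for every gene list below. The 6 serum and 2 FL libraries did not overlap in CPM, the counts scaled to library size, for 59.2% of all tested genes. Among the 8507 called genes they did not overlap for 8333, so a lack of overlap adds little to a call. Fold changes are log2 of serum over 2i with their standard error. Where leaving out a collection or an FL library, or a limma-voom fit with collection as a random block, took an adjusted p to 0.05 or more, that p is given beside it.

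**Figure D1:**
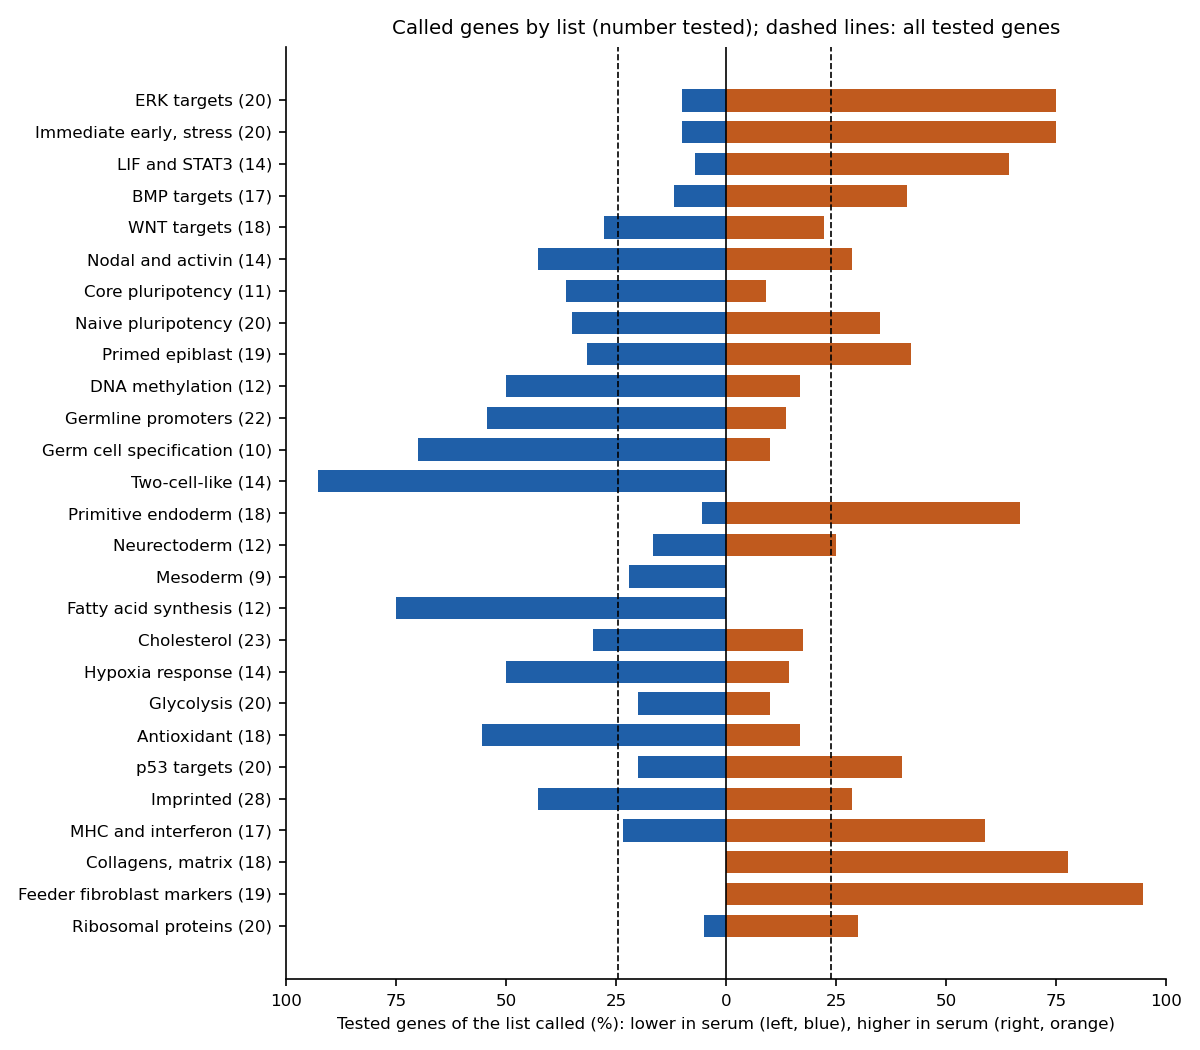
Percent of the tested genes of each list that were called higher in serum (orange, right) or lower in serum (blue, left), with the number tested in brackets. The dashed lines mark 23.8% and 24.7%, the shares of all 17552 tested genes, and ERK targets, feeder markers and collagens pass the right line while two-cell-like, fatty acid and germ cell genes pass the left one.

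The stem cell identity of both sets was read from 8 markers. Their summed level was 2363 to 2865 CPM in the 6 serum libraries and 3207 and 3304 CPM in the FL libraries, and none of the 8 was at 0 in any set. Fut4 codes for an enzyme that can make the SSEA1 sugar, on which the serum cells were sorted. Its RNA was low, at 1.6 to 3.07 CPM (median 2.5) in serum and at 0.119 and 0.413 CPM in FL, with no overlap. Whether Fut4 makes the sugar in these cells was not tested. Smad1 was at 19.2 and 18.3 CPM and Smad5 at 33.9 and 31.7 CPM in the FL libraries, in which both genes are labelled as undeleted.

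Feeder fibroblast markers stood apart from the rest. The summed level of 20 of them was 70.9 to 296 CPM in serum and 22.1 and 18.5 CPM in FL, and 18 of 19 tested rose while none fell, with a median log2 fold change of 4.60. Collection 1 had the lowest sums of the serum libraries, with 115 CPM in its GFP-negative and 70.9 CPM in its GFP-positive library, and the other 4 were at 213 to 296 CPM. Twist2 was the marker not tested and Twist1 the one not called (log2 fold change -0.17 ± 0.29, adjusted p = 0.66). No marker of the list was at 0 in both FL libraries. Summed levels of 6 endothelial markers were at 6.53 to 13.0 CPM in serum and 6.38 and 12.9 CPM in FL, of which Tie1 made up 0.209 and 6.08 CPM in the FL libraries. A longer list of 10, which holds Pecam1, a gene that stem cells also express, summed to 58.6 to 91.7 CPM against 149 and 123 CPM, without overlap. Neurectoderm markers were at 77.9 to 129 against 105 and 103 CPM, and mesoderm markers at 0.844 to 1.64 against 0.715 and 0.770 CPM. The part of feeder RNA in the results below was not tested.

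**Figure D2:**
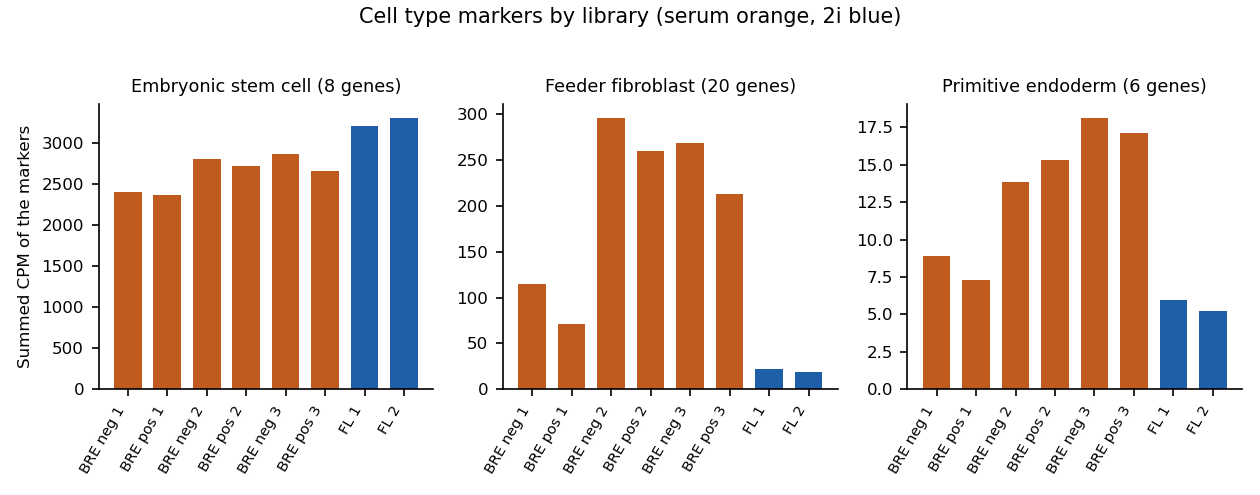
Summed CPM of the markers of 3 cell types in each library, on axes that start at 0 (BRE neg, GFP-negative; BRE pos, GFP-positive; FL, undeleted 2i cells). Feeder marker sums are 70.9 to 296 CPM in serum and 22.1 and 18.5 CPM in FL, and collection 1 is the lowest of the serum libraries in each panel.

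Targets of ERK signalling were among the highest shares of rising genes. Of 20 tested, 15 rose, 13 of them over 2-fold, and 2 fell (1 fall without collection 2 or collection 3 and 0 falls without FL 1), with a median log2 fold change of 2.29, against 23.8% rising over all genes. Egr1, a zinc finger factor induced within minutes of ERK activation, was at 33.9 to 48.9 CPM (median 38.2) in serum and at 0.119 and 0.825 CPM in FL (log2 fold change 6.38 ± 0.47, adjusted p = 4.3e-05). The AP-1 subunit Fos was at 99.9 to 252 CPM (median 133) in serum and at 3.16 and 4.73 CPM in FL (log2 fold change 5.36 ± 0.42, adjusted p = 5.7e-05). In both genes the lowest serum library was far above the higher FL library, and collection 1 had the highest values. Egr2, a relative of Egr1, was at 3.95 to 7.09 CPM (median 5.45) against 0 and 0.11 CPM (log2 fold change 6.53 ± 0.56, adjusted p = 8.7e-05).

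Most of the negative feedback genes of the same pathway moved with it. Spry4, a Sprouty inhibitor of receptor tyrosine kinase signalling, was at 136 to 259.9 CPM (median 214) in serum and at 13.3 and 14.8 CPM in FL (log2 fold change 3.88 ± 0.25, adjusted p = 2.5e-05). The ERK phosphatase Dusp6 was at 105 to 199.9 CPM (median 152) against 11.4 and 15.8 CPM (log2 fold change 3.47 ± 0.27, adjusted p = 5.1e-05). Spry2 was at 119 to 216 CPM (median 184) against 32.5 and 46.6 CPM (log2 fold change 2.16 ± 0.24, adjusted p = 2.6e-04). All 3 were above both FL libraries in each of the 6 serum libraries. Of the further inhibitors of the cascade, Spred2 was not called (0.37 ± 0.15, adjusted p = 0.069). Dusp4 (3.35), Spred1 (1.81) and Il17rd (0.93) rose. With each chromosome centred on its own median, Il17rd, on chromosome 14, was at 0.39 (adjusted p = 0.030). Spry1, in contrast, held a call that rested on both FL libraries (log2 fold change 0.67 ± 0.17, adjusted p = 0.014, which was 0.094 without FL 1 and 0.059 without FL 2).

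Among the transcription factors downstream, the ETS factor Etv4 was at 170.0 to 259.6 CPM (median 196) in serum and at 32.5 and 24.6 CPM in FL (log2 fold change 2.87 ± 0.19, adjusted p = 2.7e-05). Its close relative Etv5 went the other way, at 258 to 294 CPM (median 268) in serum and 421 and 362 CPM in FL (log2 fold change -0.51 ± 0.11, adjusted p = 0.0054, which was 0.078 without FL 1). Myc was at 11.6 to 24.1 CPM (median 15.3) against 3.07 and 3.22 CPM (log2 fold change 2.41 ± 0.29, adjusted p = 3.9e-04). Etv1, a further member of the PEA3 family, was at 7.82 to 16.4 CPM (median 11.4) against 12.5 and 11 CPM and was not called (adjusted p = 0.94). The 3 PEA3 factors thus had a rise, a fall and no call. The other gene that fell was Ier3 (log2 fold change -1.19 ± 0.32, adjusted p = 0.017, which was 0.068 without collection 2, 0.058 without collection 3 and 0.23 without FL 1). Ccnd1, often read as an ERK output, was at 116 to 177 CPM (median 136) against 123 and 114 CPM, and the 2 sets overlapped (log2 fold change 0.24 ± 0.12, adjusted p = 0.13).

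The wider list of immediate early and stress genes, which shares 4 genes with the ERK list, gave the same counts: 15 of 20 rose, 13 over 2-fold, and 2 fell with a median of 1.74 (0 falls without collection 2 or FL 1 and 1 fall without collection 3). Fosb was at 31.1 to 85.2 CPM (median 37) in serum and at 0.0596 and 1.24 CPM in FL (log2 fold change 6.21 ± 0.75, adjusted p = 3.8e-04), and its 2 FL libraries differed more from each other than the serum libraries did. Atf3, Jun, Junb, Nr4a1 and Zfp36 rose by 3.53, 2.28, 2.51, 2.28 and 2.24 on the log2 scale. The sort preceded RNA extraction in the serum set, and no sort is recorded for FL, so sorting and culture cannot be told apart for genes induced within minutes. The heat shock genes Hspa1a (log2 fold change 1.23 ± 0.36, adjusted p = 0.023, which was 0.084 without FL 1 and 0.12 without FL 2) and Hspa1b (0.95 ± 0.26, adjusted p = 0.017, which was 0.052 without collection 2 and 0.12 without FL 2) rose by less.

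The upstream FGF genes were called about as often as all genes, with 4 of 14 ligands, receptors and adaptors rising (28.6%) and 3 falling (21.4%) (2 rises without collection 2, collection 3 or FL 2 and 1 fall without FL 1). Fgf4, the main autocrine ligand of these cells, was at 262 to 329.6 CPM (median 291) in serum and at 341 and 320.3 CPM in FL (log2 fold change -0.17 ± 0.11, adjusted p = 0.22). The receptor Fgfr1 was at 89.3 to 109.9 CPM (median 93.1) against 59.3 and 60.3 CPM (log2 fold change 0.7 ± 0.11, adjusted p = 0.0015). Fgfr1 lies on chromosome 8, whose genes had a median log2 fold change of 0.44. With each chromosome centred on its own median, its log2 fold change was 0.26 (adjusted p = 0.087). The ligand Fgf17 rose (log2 fold change 1.85 ± 0.43, adjusted p = 0.0084). Klb, the co-receptor for endocrine FGFs, had the largest fall of the list (log2 fold change -5.3 ± 0.87, adjusted p = 0.0016), with 15.8 and 2.72 CPM in the 2 FL lines.

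WNT target genes did not move as 1 group. Of 18 tested, 4 rose and 5 fell, shares of 22.2% and 27.8% that lie near the 23.8% and 24.7% of all genes. Axin2, the general feedback target of β-catenin, was at 8.83 to 11.7 CPM (median 10.6) in serum and at 23.1 and 27.4 CPM in FL (log2 fold change -1.26 ± 0.14, adjusted p = 2.4e-04). Lef1, a TCF/LEF factor that is itself a target, was at 0.652 to 4.13 CPM (median 1.61) against 30.8 and 14.3 CPM (log2 fold change -3.49 ± 0.52, adjusted p = 0.0010). Notum, a secreted enzyme that inactivates WNT ligands, was at 9.81 to 17.6 CPM (median 13.4) against 44.6 and 43.2 CPM (log2 fold change -1.72 ± 0.18, adjusted p = 2.2e-04). In all 3 the serum libraries were below both FL libraries.

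Sp5, a target bound by TCF proteins near its start, was low in both sets, at 0.221 to 0.598 CPM (median 0.441) against 1.22 and 1.38 CPM (log2 fold change -1.6 ± 0.41, adjusted p = 0.014, which was 0.074 without FL 2). Apcdd1, a membrane inhibitor of WNT, fell by less (log2 fold change -0.73 ± 0.23, adjusted p = 0.029, which was 0.070 without collection 2 and 0.24 without FL 1). The 4 genes that rose were the Naked cuticle inhibitors Nkd1 (1.82 ± 0.33, adjusted p = 0.0025) and Nkd2 (2.36 ± 0.31, adjusted p = 5.8e-04), Cdx1 (2.52 ± 0.37, adjusted p = 9.2e-04) and the BMP ligand Bmp4 (1.57 ± 0.14, adjusted p = 1.1e-04). Cdx1, a caudal homeobox factor, was at 7.96 to 21.1 CPM (median 17.2) in serum and at 2.86 and 2.53 CPM in FL. Tcf7 and Znrf3 were not called, with log2 fold changes of 0.1 and -0.27. Brachyury (T) was at 0.196 to 0.575 CPM (median 0.321) against 0.328 and 0.275 CPM and overlapped, and Lgr5, Cdx2 and Cdx4 were too low to test. Of the 250 bases before and 50 after the start that RefSeq gives for 15 of these genes, only that of Sp5 held the TCF/LEF letters CTTTGAT on either strand (6.67%, against 3.72% of 27025 promoters of the same length).

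Among the components of the pathway, 7 of 19 rose and 1 fell (4 rises without FL 1 and 2 falls without collection 1). The fall was that of Porcn (-0.94 ± 0.16, adjusted p = 0.0021), which prepares WNT ligands for secretion, and its value was 0.04 (adjusted p = 0.88) with the X chromosome centred. The Frizzled receptors Fzd7 and Fzd5 had the smallest adjusted p. Fzd7 was at 189.5 to 266 CPM (median 215) in serum and at 61.8 and 54.7 CPM in FL (log2 fold change 1.94 ± 0.15, adjusted p = 4.8e-05). Fzd5 was at 252 to 349.8 CPM (median 325) against 95.6 and 86.4 CPM (log2 fold change 1.77 ± 0.14, adjusted p = 6.6e-05). Both lie on chromosome 1, and centred on that chromosome the values were 1.4 (adjusted p = 2.3e-04) for Fzd7 and 1.23 (adjusted p = 3.6e-04) for Fzd5. The kinase genes Gsk3a and Gsk3b, the drug target of 2i, were not called (-0.24 ± 0.10, adjusted p = 0.084 and -0.09 ± 0.13, adjusted p = 0.58), nor was Ctnnb1, which codes for β-catenin (0.07 ± 0.11, adjusted p = 0.60).

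BMP target genes had more rises than falls. Of 17 tested, 7 rose (41.2%, against 23.8% of all genes) and 2 fell (1 fall without collection 2, collection 3 or FL 1). Id1, an inhibitor of basic helix-loop-helix factors and a direct SMAD1/5 target, was at 18.7 to 29.4 CPM (median 27.4) in serum and at 4.8 and 4.98 CPM in FL (log2 fold change 2.4 ± 0.16, adjusted p = 3.0e-05). Id2 was at 11.4 to 26.6 CPM (median 16.2) against 3.37 and 4.13 CPM (log2 fold change 2.26 ± 0.32, adjusted p = 7.6e-04). Id3 was at 10.8 to 24.1 CPM (median 18.4) against 4.14 and 6.82 CPM (log2 fold change 1.7 ± 0.28, adjusted p = 0.0017). The 3 genes did not overlap between the sets, whichever GFP fraction a serum library came from. Id4 was at 6.56 to 13 CPM (median 8.05) against 3.31 and 6.68 CPM, did overlap and was not called (adjusted p = 0.085).

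The feedback inhibitors of the pathway were split. The inhibitory SMAD gene Smad7 was at 72.5 to 96.5 CPM (median 90.1) in serum and at 57.7 and 40.6 CPM in FL (log2 fold change 0.83 ± 0.16, adjusted p = 0.0040). Bambi, a pseudoreceptor, was at 15.7 to 23.6 CPM (median 20.4) against 10.3 and 9.46 CPM (log2 fold change 1.02 ± 0.17, adjusted p = 0.0017). Smad6, the other inhibitory SMAD gene, was at 3.15 to 5.04 CPM (median 3.91) against 9.36 and 5.53 CPM (log2 fold change -0.87 ± 0.28, adjusted p = 0.032, which was 0.093 without collection 2, 0.11 without collection 3 and 0.31 without FL 1). The 2 inhibitory SMADs thus differed in direction, and the call of Smad6 rested on single libraries. The BMP antagonist Grem1, which fibroblasts also express, was at 1.73 to 2.69 CPM (median 1.99) against 0.0894 and 0.165 CPM (log2 fold change 4.05 ± 0.44, adjusted p = 2.5e-04).

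The transducers Smad1 (0.42 ± 0.16, adjusted p = 0.052) and Smad4 (-0.09 ± 0.09, adjusted p = 0.42) were not called, and Smad5 rose (0.6 ± 0.12, adjusted p = 0.0043). Smad9, the third BMP SMAD, was at 0.102 to 0.307 CPM (median 0.248) in serum and at 2.98 and 0.825 CPM in FL (log2 fold change -3.06 ± 0.55, adjusted p = 0.0025). The ligand Bmp4 was at 35.8 to 53.4 CPM (median 41.3) against 14.8 and 13.6 CPM, and the ligand Bmp7 at 10.6 to 17.6 CPM (median 14.8) against 6.65 and 6.46 CPM. The serum libraries were above both FL libraries for each ligand. Of 18 ligands, receptors and SMADs tested, 8 rose and 2 fell (5 rises without FL 2). The type II receptor Bmpr2 rose (1.11 ± 0.14, adjusted p = 5.4e-04), and its value was 0.57 (adjusted p = 0.013) with chromosome 1 centred. The type I receptor Bmpr1a (log2 fold change 0.4 ± 0.11, adjusted p = 0.021, which was 0.054 without collection 2, 0.057 without collection 3, 0.070 without FL 1 and 0.18 without FL 2) lies on chromosome 14, with a centred value of -0.14 (adjusted p = 0.33).

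Nodal and activin targets had 4 rises and 6 falls among 14 tested. Lefty1, a secreted Nodal inhibitor, was at 31.3 to 68.1 CPM (median 48.4) in serum and at 205 and 222 CPM in FL (log2 fold change -2.1 ± 0.16, adjusted p = 5.6e-05). Foxh1, the DNA-binding partner of SMAD2, was at 13.5 to 18.9 CPM (median 16.3) against 31 and 46.9 CPM (log2 fold change -1.26 ± 0.18, adjusted p = 7.6e-04). Neither gene overlapped between the sets. Nodal itself (-0.14 ± 0.17, adjusted p = 0.53) and its co-receptor Tdgf1 (-0.25 ± 0.21, adjusted p = 0.37) were not called.

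**Figure D3:**
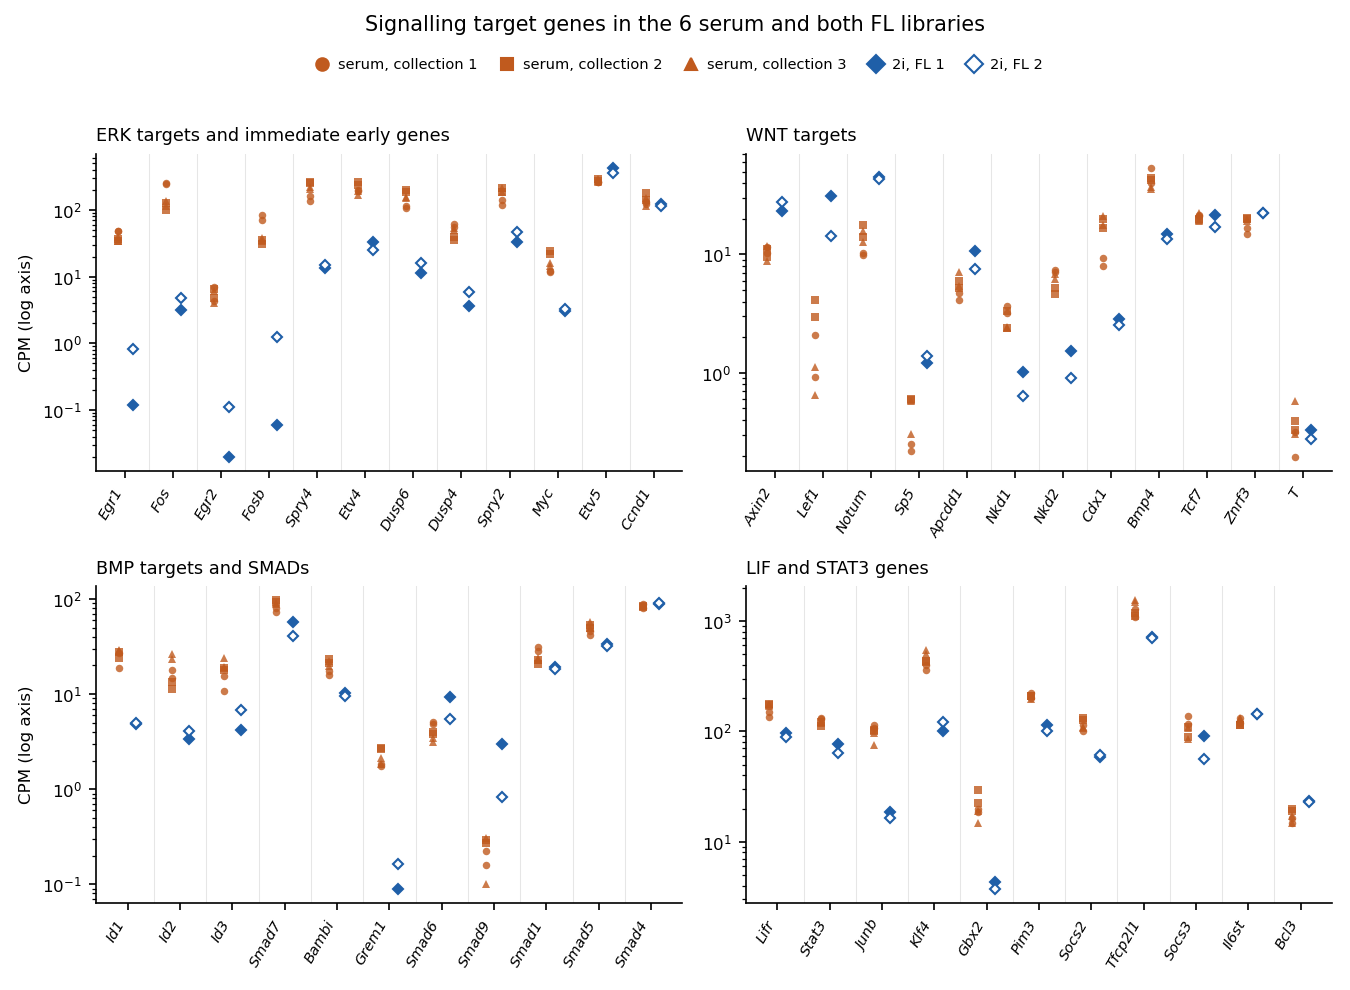
CPM of signalling genes on log axes, with 1 point per library: serum in orange by collection, FL in blue, and values of 0 drawn at 0.02. Egr1, Fos, Spry4 and Dusp6 are higher in every serum library than in either FL library, Axin2, Lef1 and Notum are lower, and T, Ccnd1 and Socs3 overlap.

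LIF and STAT3 genes were mostly higher in serum, although LIF was present in both media. Of 14 tested, 9 rose (64.3%) and 1 fell, with a median of 0.84 (0 falls without collection 3, FL 1 or FL 2). Klf4, a direct STAT3 target and pluripotency factor, was at 360.3 to 546 CPM (median 430.1) in serum and at 101 and 121 CPM in FL (log2 fold change 2.01 ± 0.17, adjusted p = 6.9e-05). Junb was at 75.7 to 115 CPM (median 102) against 18.7 and 16.5 CPM (log2 fold change 2.51 ± 0.14, adjusted p = 1.6e-05), and it also stands in the immediate early list. The homeobox gene Gbx2 was at 14.9 to 29.7 CPM (median 19.5) against 4.35 and 3.74 CPM (log2 fold change 2.36 ± 0.22, adjusted p = 1.2e-04). None of the 3 overlapped between the sets.

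The receptor gene Lifr (0.83 ± 0.13, adjusted p = 0.0011) and Stat3 itself (0.82 ± 0.12, adjusted p = 8.2e-04) rose by less than 2-fold. The kinase gene Pim3 and the feedback gene Socs2 also rose, by 0.96 and 0.93. Socs3, the feedback inhibitor of this receptor, was at 85.7 to 137 CPM (median 108) in serum and at 90.5 and 55.8 CPM in FL, and overlapped (log2 fold change 0.56 ± 0.21, adjusted p = 0.054). Tfcp2l1 was at 1080.4 to 1535 CPM (median 1233) against 716 and 700.0 CPM (log2 fold change 0.86 ± 0.14, adjusted p = 0.0019). It lies on chromosome 1, and its centred value was 0.32 (adjusted p = 0.10). The co-receptor Il6st and the kinase Jak1 were not called (-0.21 ± 0.10, adjusted p = 0.11 and 0.13 ± 0.11, adjusted p = 0.35).

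The 3 central pluripotency factors differed by less than 2-fold. Pou5f1 was at 539 to 704 CPM (median 674) in serum and at 855 and 896 CPM in FL (log2 fold change -0.43 ± 0.12, adjusted p = 0.020, which was 0.058 without collection 3, 0.081 without FL 1 and 0.13 without FL 2). Nanog was at 294 to 556 CPM (median 385) against 630.1 and 653 CPM (log2 fold change -0.66 ± 0.21, adjusted p = 0.034, which was 0.11 without collection 2, 0.10 without FL 1 and 0.13 without FL 2). Sox2 was at 472 to 630.3 CPM (median 569) against 499 and 484 CPM and overlapped (log2 fold change 0.19 ± 0.12, adjusted p = 0.23). Of 11 core genes tested, 1 rose and 4 fell (3 rises without collection 1, 2 rises without collection 3 and 2 falls without FL 1 or FL 2). Zfp42 (Rex1), a marker of the naive state, had the largest fall among them, at 113 to 127 CPM (median 123) against 622 and 635 CPM (log2 fold change -2.36 ± 0.10, adjusted p = 4.6e-06). It lies on chromosome 8 and its centred value was -2.8 (adjusted p = 2.2e-06).

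Naive factors were divided, with 7 of 20 rising and 7 falling. Of the 20, 7 lie on chromosomes 1, 8 and 14, and with each chromosome centred on its own median 5 rose and 7 fell. Klf2, which is known to be degraded when ERK is active, was at 72.7 to 89.8 CPM (median 78.8) in serum and at 138 and 139 CPM in FL (log2 fold change -0.79 ± 0.11, adjusted p = 6.3e-04). Its relatives Klf4, given above, and Klf5 were higher in serum. Klf5 was at 134 to 199.6 CPM (median 186) against 90.9 and 93.3 CPM (log2 fold change 0.93 ± 0.15, adjusted p = 0.0015), with a value of 0.39 (adjusted p = 0.060) once chromosome 14 was centred. Prdm14, which restrains both FGF signalling and DNA methylation, was at 10.2 to 16.3 CPM (median 12.8) against 55.6 and 53.6 CPM (log2 fold change -2.08 ± 0.15, adjusted p = 3.5e-05). Esrrb was at 579 to 790.2 CPM (median 733) against 489 and 509 CPM (log2 fold change 0.51 ± 0.13, adjusted p = 0.015, which was 0.11 without FL 1 and 0.079 without FL 2). Tbx3 was at 69.6 to 174 CPM (median 156) against 78.5 and 80.2 CPM, with collection 1 at the level of FL (log2 fold change 0.8 ± 0.28, adjusted p = 0.043, which was 0.13 without collection 2, 0.13 without collection 3, 0.16 without FL 1, 0.14 without FL 2 and 0.053 with collection as a random block).

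Dppa3 (Stella), a maternal factor that protects against DNA methylation, was at 1.3 to 11.5 CPM (median 3.24) in serum and at 19.6 and 67.1 CPM in FL (log2 fold change -3.24 ± 0.65, adjusted p = 0.0043). The 2 FL lines differed from each other here by more than any 2 libraries of 1 set do for Klf2 or Prdm14. Tcl1 and Pecam1 fell too, with log2 fold changes of -1.15 and -1.1. The orphan receptor gene Nr0b1, on the X chromosome, was at 88.7 to 122 CPM (median 113) against 103 and 126 CPM and was not called (log2 fold change -0.05 ± 0.13, adjusted p = 0.76), whereas its chromosome-centred value was 0.93 (adjusted p = 0.0013).

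Genes of the primed epiblast were divided as well, with 8 of 19 rising and 6 falling (5 rises without FL 2). The SRY-related genes Sox4 and Sox11 rose. Sox4 was at 40.6 to 56.9 CPM (median 48) in serum and at 10.5 and 10.9 CPM in FL (log2 fold change 2.16 ± 0.13, adjusted p = 2.0e-05). Sox11 was at 14.4 to 22.5 CPM (median 17.1) against 3.28 and 3.88 CPM (log2 fold change 2.35 ± 0.22, adjusted p = 1.2e-04). Both sets were separate for these genes. Pou3f1 (Oct6), a POU factor of the late epiblast, was at 9.9 to 14.4 CPM (median 12.2) against 3.04 and 3.85 CPM (log2 fold change 1.82 ± 0.19, adjusted p = 2.0e-04).

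In the opposite direction, Otx2, which drives exit from the naive state, was at 2.71 to 5.72 CPM (median 4.94) in serum and at 24.9 and 16.7 CPM in FL (log2 fold change -2.14 ± 0.21, adjusted p = 1.4e-04). Zic2 was at 6.37 to 14.5 CPM (median 10.2) against 74.9 and 74.9 CPM (log2 fold change -2.83 ± 0.22, adjusted p = 5.2e-05). Zic5 fell by less, with a log2 fold change of -1.33 ± 0.11, adjusted p = 7.1e-05. All 3 lie on chromosome 14, where most genes were higher in serum. Fgf5, the usual marker of the primed epiblast, was low in both sets, at 0.0677 to 0.422 CPM (median 0.122) against 0.179 and 0.33 CPM, and overlapped (log2 fold change -0.54 ± 0.56, adjusted p = 0.46). Dnmt3b also stands in this list and is given next.

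DNA methylation genes had 2 rises and 6 falls among 12 tested (50% falling, against 24.7% of all genes) (0 rises without FL 1 or FL 2 and 2 falls without FL 2). The de novo methyltransferase gene Dnmt3b was at 63.2 to 169 CPM (median 108) in serum and at 269 and 312 CPM in FL (log2 fold change -1.41 ± 0.27, adjusted p = 0.0036). Its cofactor Dnmt3l was at 65.9 to 145 CPM (median 133) against 214 and 184 CPM (log2 fold change -0.79 ± 0.26, adjusted p = 0.033, which was 0.16 without FL 1 and 0.072 without FL 2). Dnmt3a, the second de novo enzyme, went the other way, at 96.6 to 234 CPM (median 130.3) against 73.5 and 70.1 CPM (log2 fold change 1.06 ± 0.29, adjusted p = 0.016, which was 0.072 without FL 1 and 0.086 without FL 2). The serum collections differed among themselves, with Dnmt3a highest in collection 2 and Dnmt3l lowest in collection 3.

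Of the maintenance genes, Uhrf1, which brings the maintenance enzyme to replicated DNA, was at 338 to 441 CPM (median 389) in serum and at 668 and 626 CPM in FL (log2 fold change -0.75 ± 0.11, adjusted p = 0.0011). The maintenance enzyme gene Dnmt1 was at 355 to 414 CPM (median 387) against 496 and 485 CPM (log2 fold change -0.34 ± 0.09, adjusted p = 0.018, which was 0.052 without collection 3, 0.13 without FL 1 and 0.10 without FL 2). The H3K9 methyltransferase gene Ehmt1 (-0.46 ± 0.10, adjusted p = 0.0070, which was 0.087 without FL 2) and its partner Ehmt2 (-0.5 ± 0.18, adjusted p = 0.047, which was 0.091 without collection 2, 0.076 without collection 3, 0.22 without FL 1 and 0.099 without FL 2) fell by less than 2-fold. Uhrf1 and Dnmt1 were below both FL libraries in all 6 serum libraries. The oxidases of methylcytosine differed from each other. Tet2 was at 212 to 415 CPM (median 338) against 186 and 197 CPM (log2 fold change 0.78 ± 0.20, adjusted p = 0.012, which was 0.077 without FL 1 and 0.058 without FL 2), while Tet1 (0.2 ± 0.13, adjusted p = 0.24) and Tet3 (-0.21 ± 0.16, adjusted p = 0.30) were not called. DNA methylation itself was not measured in these libraries.

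Germline genes with CpG-rich promoters, of the kind that DNA methylation is known to silence, were mostly lower in serum. Of 22 tested, 12 fell, all over 2-fold (54.5%, against 24.7% of all genes falling), and 3 rose, with a median of -1.48. RefSeq gives promoters for 20 of them (GRCm38.p6, 250 bases before to 50 after the start). The E-box letters CACGTG, which form a core bound by the germline repressor complex of MGA and MAX, stand in 12 of the 20 promoters (60%), against 7.24% of 27025 promoters of the same length. The median number of CpG pairs in the window was 20 in these genes and 7 over all promoters. The letters CACGTG hold a CpG pair themselves, and promoters with a like number of CpG pairs were not compared. The promoters of 5 genes are shown, 3 of genes that fell (Fkbp6, Mael, Hormad1) and 2 of genes that rose and hold the same letters (Ddx4, Tdrd1). Each is the 250 bases up to the start, 5′ to 3′ on the gene's strand, with CACGTG in capitals. They lie at chr5:135350045-135350294, minus strand (Fkbp6), chr1:166238745-166238994, minus strand (Mael), chr3:95559427-95559676, plus strand (Hormad1), chr13:112652311-112652560, minus strand (Ddx4) and chr19:56825959-56826208, plus strand (Tdrd1). A match of letters is not evidence of binding.
Fkbp6: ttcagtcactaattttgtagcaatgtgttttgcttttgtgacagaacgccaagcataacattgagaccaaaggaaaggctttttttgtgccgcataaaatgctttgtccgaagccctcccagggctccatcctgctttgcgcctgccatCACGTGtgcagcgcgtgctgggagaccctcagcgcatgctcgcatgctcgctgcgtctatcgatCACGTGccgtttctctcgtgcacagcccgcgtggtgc
Mael: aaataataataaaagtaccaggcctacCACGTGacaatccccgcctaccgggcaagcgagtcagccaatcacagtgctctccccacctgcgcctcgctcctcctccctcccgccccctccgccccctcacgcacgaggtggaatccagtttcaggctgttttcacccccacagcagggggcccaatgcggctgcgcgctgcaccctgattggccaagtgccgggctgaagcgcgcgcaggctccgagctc
Hormad1: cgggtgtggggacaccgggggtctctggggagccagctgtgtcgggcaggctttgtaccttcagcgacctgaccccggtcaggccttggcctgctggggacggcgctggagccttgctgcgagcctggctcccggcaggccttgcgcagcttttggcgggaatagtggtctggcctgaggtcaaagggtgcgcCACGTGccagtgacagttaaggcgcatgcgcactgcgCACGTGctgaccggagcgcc
Ddx4: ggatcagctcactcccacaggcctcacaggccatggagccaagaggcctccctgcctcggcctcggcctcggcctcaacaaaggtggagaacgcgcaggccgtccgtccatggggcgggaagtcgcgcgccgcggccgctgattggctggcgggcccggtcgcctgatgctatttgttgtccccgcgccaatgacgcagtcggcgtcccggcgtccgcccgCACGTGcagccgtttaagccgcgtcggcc
Tdrd1: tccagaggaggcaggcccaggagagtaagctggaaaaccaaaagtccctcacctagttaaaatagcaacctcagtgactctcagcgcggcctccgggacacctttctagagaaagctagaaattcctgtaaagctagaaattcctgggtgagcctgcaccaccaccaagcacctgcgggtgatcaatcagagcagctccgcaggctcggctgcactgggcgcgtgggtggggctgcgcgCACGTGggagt

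Fkbp6, a chaperone partner in the piRNA pathway, was at 0 to 0.0984 CPM (median 0.0552) in serum and at 26.3 and 19.6 CPM in FL (log2 fold change -8.7 ± 0.30, adjusted p = 2.0e-06). Mael, a piRNA factor of the male germline, was at 3.11 to 6.79 CPM (median 4.86) against 120.2 and 74.8 CPM (log2 fold change -4.3 ± 0.27, adjusted p = 2.1e-05). Hormad1, a protein of the meiotic chromosome axis, was at 2.87 to 6.25 CPM (median 4.2) against 71 and 35.4 CPM (log2 fold change -3.56 ± 0.31, adjusted p = 9.0e-05). The serum libraries of all 3 were below both FL libraries, and Fkbp6 was close to the floor of detection there. Rpl10l, a retrogene copy of a ribosomal protein gene that is used in spermatocytes, was at 0.41 to 3.05 CPM (median 2.41) against 101 and 58.5 CPM (log2 fold change -5.37 ± 0.56, adjusted p = 1.9e-04). As a copy it may share reads with its parent gene.

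Smaller falls were those of Dazl, an RNA-binding protein of germ cells, at 2.68 to 5.56 CPM (median 4.57) in serum and 23.9 and 14.1 CPM in FL (log2 fold change -2.14 ± 0.30, adjusted p = 8.4e-04), and of Sycp3 (-1.02), Syce1 (-2.44), Tex19.1 (-1.47) and Taf7l (-2.74). The helicase gene Ddx4 (Vasa) moved up, at 16.4 to 23.7 CPM (median 21.2) in serum and 6.97 and 8.12 CPM in FL (log2 fold change 1.47 ± 0.16, adjusted p = 2.7e-04). Tdrd1, a Tudor protein of the piRNA pathway, was at 2.06 to 2.86 CPM (median 2.23) against 0.298 and 0.605 CPM (log2 fold change 2.35 ± 0.37, adjusted p = 0.0014). The third rise was that of Piwil2, a PIWI protein (0.65 ± 0.14, adjusted p = 0.0066, which was 0.071 without FL 2). Piwil2 lies on chromosome 14, and its centred value was 0.11 (adjusted p = 0.55). Of the 12 genes whose promoter holds CACGTG, 6 fell, 2 rose and 4 were not called. Of the 8 without it, 6 fell and 2 were not called. Stra8, the retinoic acid target that marks entry into meiosis, was at 0.616 to 5.54 CPM (median 3.93) against 12.4 and 6.63 CPM (log2 fold change -1.5 ± 0.66, adjusted p = 0.092).

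Genes of germ cell specification fell in 7 of 10 cases and rose in 1. Tfap2c was at 21.8 to 43.6 CPM (median 29.2) in serum and at 70.4 and 74.2 CPM in FL (log2 fold change -1.2 ± 0.15, adjusted p = 4.6e-04). Prdm1 (Blimp1), the repressor that starts the germ cell programme, was at 3.72 to 7.64 CPM (median 6.26) against 18.3 and 18 CPM (log2 fold change -1.61 ± 0.26, adjusted p = 0.0015). Both were separate between the sets, as were Prdm14 and Dppa3, which also stand in this list. Dnd1 was the rising member (0.98 ± 0.20, adjusted p = 0.0050).

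Genes of the rare two-cell-like state were at or near 0 in serum. Of 14 tested, 13 fell, all over 2-fold (92.9%, against 24.7% of all genes), and none rose. The median log2 fold change was -7.31, and it was -7.37 with the 5 genes near the floor of counting in serum set to their counted ratios. Zscan4d, of a cluster of telomere-associated zinc finger genes, was at 0 to 0.295 CPM (median 0.122) in serum and at 25.5 and 30.1 CPM in FL (log2 fold change -7.74 ± 0.53, adjusted p = 3.0e-05). Tmem92 was at 0 to 0.131 CPM (median 0.0136) against 13 and 16.7 CPM (log2 fold change -8.77 ± 0.50, adjusted p = 1.6e-05). Zfp352 had 1 count in all 6 serum libraries together and was at 6.56 and 9.0 CPM in FL (1489-fold with a 95% counting interval of 266 to 58926, adjusted p = 1.3e-05). The serum libraries were at or near 0 for all 3, and the 2 FL libraries were close to each other. Eif1a, a gene that all cells use, was the member not called (-0.07 ± 0.13, adjusted p = 0.68). The Zscan4, Usp17l and Tcstv copies are nearly identical, and the values of single copies are uncertain.

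**Figure D4:**
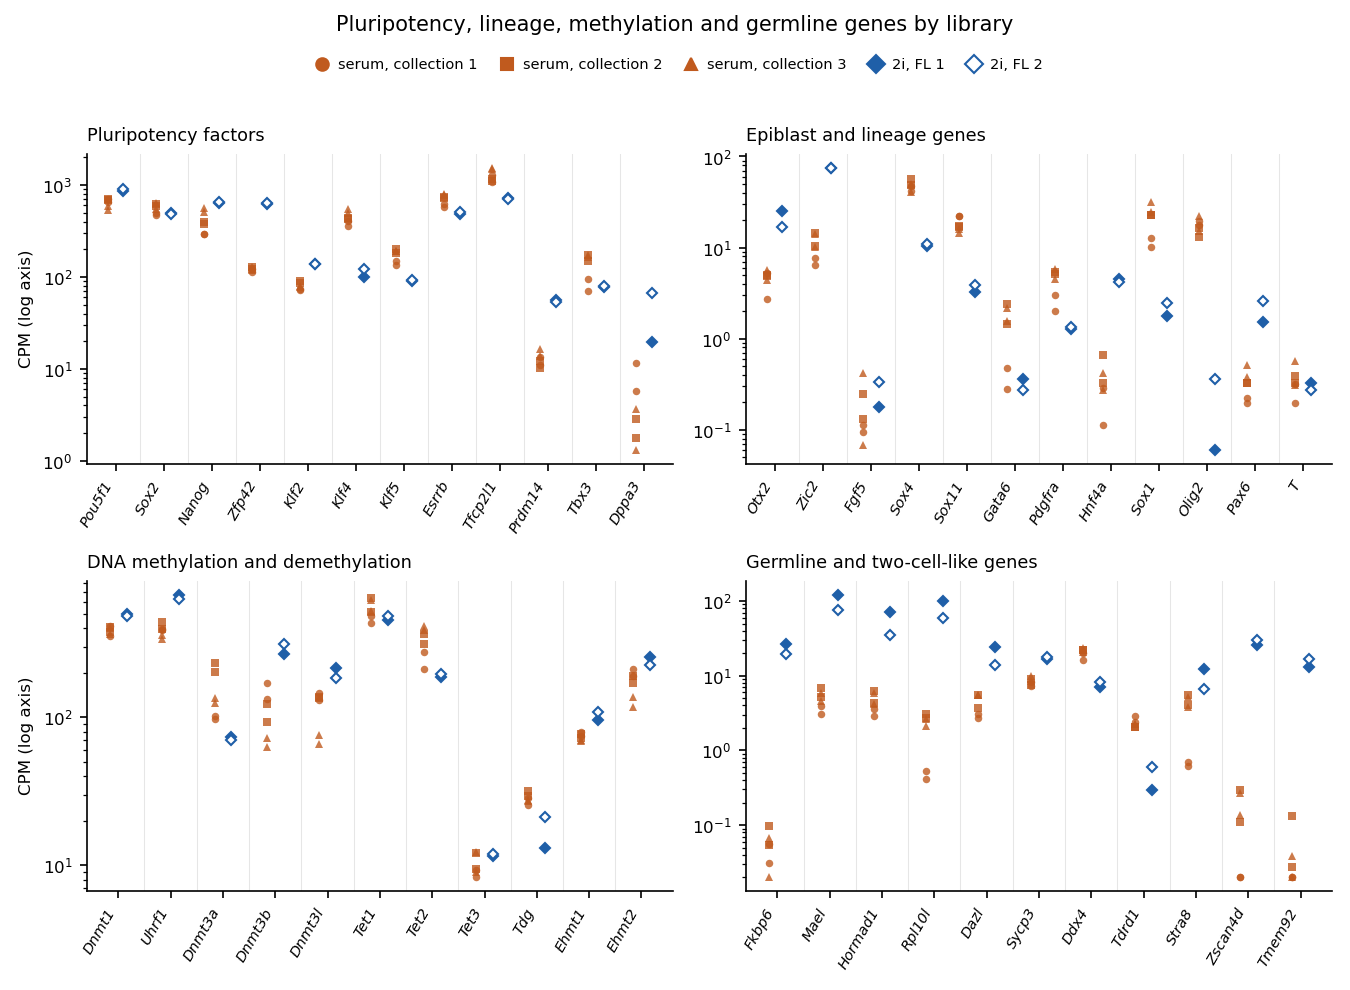
CPM of pluripotency, lineage, DNA methylation, germline and two-cell-like genes on log axes, with 1 point per library: serum in orange by collection, FL in blue, and values of 0 drawn at 0.02. Zfp42, Prdm14, Fkbp6, Mael, Zscan4d and Tmem92 are lower in every serum library than in either FL library, Klf4, Ddx4 and Tdrd1 are higher, and Sox2, Fgf5 and T overlap.

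Primitive endoderm genes rose in 12 of 18 cases (66.7%, against 23.8% of all genes) and fell in 1, with a median of 1.25 (7 rises without collection 3 or FL 2). The receptor gene Pdgfra was at 2.02 to 5.82 CPM (median 4.84) in serum and at 1.28 and 1.35 CPM in FL (log2 fold change 1.73 ± 0.37, adjusted p = 0.0059). The laminin genes Lamb1 and Lama1 rose by 1.69 and 1.17, and Lamb1 was highest in collection 1. Gata6, the factor that starts the lineage, was at 0.28 to 2.39 CPM (median 1.5) against 0.358 and 0.275 CPM (log2 fold change 2.14 ± 0.73, adjusted p = 0.041, which was 0.12 without collection 2, 0.11 without collection 3, 0.12 without FL 1, 0.17 without FL 2 and 0.14 with collection as a random block). Its lowest values were those of collection 1, and the call rested on single libraries. Gata4 (0.21 ± 0.38, adjusted p = 0.67) and Sox17 (0.8 ± 0.45, adjusted p = 0.17) were not called. Fibroblasts also express Pdgfra and laminins, and the summed level of 6 endoderm markers, 7.28 to 18.1 CPM in serum and 5.99 and 5.23 CPM in FL, was lowest in collection 1, as were the feeder markers. Their part in these rises was not tested. Hnf4a, the gene that fell, was at 0.112 to 0.656 CPM (median 0.305) against 4.5 and 4.18 CPM (log2 fold change -3.67 ± 0.36, adjusted p = 1.5e-04).

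Neural genes had 3 rises and 2 falls among 12. Olig2, a helix-loop-helix factor of the neural tube, was at 13.1 to 22.2 CPM (median 17.1) in serum and at 0.0596 and 0.358 CPM in FL (log2 fold change 6.34 ± 0.44, adjusted p = 3.3e-05). Sox1, the earliest neurectoderm marker, was at 10.1 to 31.3 CPM (median 23) against 1.79 and 2.48 CPM (log2 fold change 3.29 ± 0.41, adjusted p = 4.3e-04). Pax6, a later neural factor, was at 0.196 to 0.507 CPM (median 0.327) against 1.52 and 2.59 CPM (log2 fold change -2.65 ± 0.41, adjusted p = 0.0012). The adhesion gene Ncam1 was at 8.85 to 14.3 CPM (median 10.5) against 67.4 and 55.3 CPM (log2 fold change -2.47 ± 0.17, adjusted p = 3.2e-05). The sets did not overlap for any of the 4. The third rise was that of Msi1 (1.2 ± 0.17, adjusted p = 8.9e-04). None of the 9 mesoderm genes tested rose, and the 2 that fell, Gsc (-2.97 ± 0.42, adjusted p = 7.9e-04) and Evx1 (-2.31 ± 0.72, adjusted p = 0.028, which was 0.29 without FL 2), were low in every library, with 0.984 and 1.18 CPM for Gsc and 0.179 and 0.413 CPM for Evx1 in FL (1 rise without FL 2 and 1 fall without collection 1, collection 2, collection 3 or FL 2). Of 8 Hox genes that could be tested, 4 fell and none rose (1 rise without collection 1, 1 fall without FL 1 and 2 falls without FL 2).

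Fatty acid synthesis genes were lower in serum. Of 12 fatty acid genes tested, 9 fell (75%, against 24.7% of all genes) and none rose, with a median of -0.72 (1 rise without collection 1). The lipogenic regulator Srebf1 was at 52.3 to 58.8 CPM (median 56.3) in serum and at 97 and 91.8 CPM in FL (log2 fold change -0.74 ± 0.09, adjusted p = 4.9e-04). The desaturase gene Scd1 was at 116 to 138 CPM (median 132) against 301 and 229 CPM (log2 fold change -1.02 ± 0.13, adjusted p = 4.5e-04). Acly, which makes cytosolic acetyl-CoA, was at 474 to 585 CPM (median 529) against 893 and 788 CPM (log2 fold change -0.67 ± 0.11, adjusted p = 0.0016). The sets did not overlap for any of the 3. Malic enzyme (Me1) and the desaturase Fads2 fell by more than 2-fold (-1.36 ± 0.15, adjusted p = 2.2e-04 and -1.28 ± 0.17, adjusted p = 5.4e-04).

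Cholesterol genes had 4 rises (17.4%) and 7 falls (30.4%) among 23, shares near those of all genes (1 rise without FL 2 and 2 falls without FL 1). Hmgcs1, an early enzyme of the pathway, was not called (log2 fold change -0.05 ± 0.12, adjusted p = 0.73). Sqle was at 99.1 to 112 CPM (median 104) in serum and at 163 and 138 CPM in FL (log2 fold change -0.53 ± 0.10, adjusted p = 0.0041, which was 0.063 without FL 1). The larger changes were those of Nsdhl (log2 fold change -1.68), on the X chromosome, and Hsd17b7 (1.26), on chromosome 1, which were -0.7 (adjusted p = 0.0031) and 0.72 (adjusted p = 0.0028) with the chromosomes centred.

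Hypoxia response genes fell in 7 of 14 cases and rose in 2 (1 rise without collection 2, FL 1 or FL 2 and 3 falls without collection 3 or FL 1). Ndrg1 was at 7.83 to 15.9 CPM (median 12.6) in serum and at 152 and 85 CPM in FL (log2 fold change -3.29 ± 0.31, adjusted p = 1.2e-04). The mitophagy receptor gene Bnip3 was at 11.9 to 40.5 CPM (median 25) against 167 and 109 CPM (log2 fold change -2.44 ± 0.39, adjusted p = 0.0015). Pdk1, a kinase that limits the entry of pyruvate into mitochondria, went the other way, at 275 to 358 CPM (median 321) against 146 and 123 CPM (log2 fold change 1.25 ± 0.13, adjusted p = 2.1e-04). The 3 genes did not overlap between the sets. Of 20 glycolytic genes, 2 rose and 4 fell, and 14 were not called (1 rise without collection 3, FL 1 or FL 2 and 2 falls without FL 1). Aldoa fell (-1.0 ± 0.21, adjusted p = 0.0057), and Ldha was not called (-0.49 ± 0.23, adjusted p = 0.11). Oxygen levels are not recorded in the labels.

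Antioxidant genes fell in 10 of 18 cases (55.6%) and rose in 3. The selenoenzyme gene Gpx1 was at 138 to 218 CPM (median 173) in serum and at 423 and 442 CPM in FL (log2 fold change -1.28 ± 0.15, adjusted p = 3.2e-04). Nqo1, an NRF2 target, was at 26.4 to 43.3 CPM (median 35.4) against 78.7 and 114 CPM (log2 fold change -1.47 ± 0.20, adjusted p = 6.1e-04). The glutathione synthesis genes Gclc and Gclm parted, with log2 fold changes of 1.09 ± 0.10, adjusted p = 1.3e-04 and -0.67 ± 0.13, adjusted p = 0.0040. Among metal transporters, Slc39a14 was at 148 to 175 CPM (median 168) against 41.8 and 45.7 CPM (log2 fold change 1.9 ± 0.12, adjusted p = 2.1e-05), and the zinc exporter Slc30a1 rose by 1.63. Slc39a14 lies on chromosome 14, and its centred value was 1.37 (adjusted p = 8.7e-05). The transferrin receptor gene Tfrc fell (-0.84 ± 0.16, adjusted p = 0.0033).

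Regulators of the G1 phase moved in both directions. Cdk6, a partner of D cyclins, was at 22.2 to 31.6 CPM (median 25.3) in serum and at 3.22 and 3.38 CPM in FL (log2 fold change 2.98 ± 0.18, adjusted p = 2.0e-05). Ccnd2 was at 3.72 to 16.8 CPM (median 9.09) against 1.58 and 0.605 CPM (log2 fold change 3.16 ± 0.61, adjusted p = 0.0035). The inhibitor gene Cdkn2a was at 0.599 to 1.67 CPM (median 1.17) against 8.26 and 11.1 CPM (log2 fold change -3.06 ± 0.29, adjusted p = 1.3e-04), and its neighbour Cdkn2b fell too (-1.98 ± 0.29, adjusted p = 9.0e-04). The sets did not overlap for any of these. Over the list, 5 of 19 rose and 7 fell (3 rises without FL 2). Cdkn1a (p21) was not called (-0.19 ± 0.30, adjusted p = 0.63). Of 20 genes of S and G2/M phase, 5 rose and 7 fell (3 rises without FL 2 and 4 falls without collection 3, FL 1 or FL 2), and Cenpf was the one gene over 2-fold (1.21 ± 0.11, adjusted p = 1.0e-04, and 0.67 (adjusted p = 0.0017) with chromosome 1 centred).

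Of 20 p53 targets, 8 rose and 4 fell (3 rises without FL 1, 1 fall without collection 2, 2 falls without collection 3 or FL 1 and 0 falls without FL 2). Pmaip1 (Noxa) was at 131 to 190.0 CPM (median 161) in serum and at 37.4 and 48.2 CPM in FL (log2 fold change 1.91 ± 0.14, adjusted p = 4.7e-05). Plk2 was at 74.5 to 149 CPM (median 104) against 27.7 and 40.3 CPM (log2 fold change 1.69 ± 0.27, adjusted p = 0.0014), and Mdm2 at 209 to 334 CPM (median 277) against 119 and 156 CPM (log2 fold change 0.99 ± 0.17, adjusted p = 0.0024). The sets did not overlap for the 3. Of the MYC family, Myc rose as given above, Mycn was at 45.2 to 106 CPM (median 65.9) against 114 and 143 CPM (log2 fold change -0.91 ± 0.22, adjusted p = 0.010, which was 0.078 without FL 2), and Mycl rose (log2 fold change 0.55 ± 0.15, adjusted p = 0.015, which was 0.056 without collection 3, 0.068 without FL 1 and 0.098 without FL 2). Of 16 family members and targets, 5 rose and 1 fell (2 rises without FL 1, 3 rises without FL 2, 2 falls without collection 2 and 0 falls without FL 2), and 3 of the rising genes lie on chromosome 1, namely Ncl (1.14 ± 0.12, adjusted p = 2.2e-04), Nop58 (0.42 ± 0.12, adjusted p = 0.018, which was 0.16 without FL 1 and 0.063 without FL 2) and Rrs1 (0.45 ± 0.11, adjusted p = 0.010, which was 0.12 without FL 1). Centred, Ncl was 0.6 (adjusted p = 0.0046), Nop58 -0.12 (adjusted p = 0.44) and Rrs1 -0.08 (adjusted p = 0.56).

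Imprinted genes had 8 rises and 12 falls among 28 tested (5 rises without collection 3 and 4 rises without FL 1). The noncoding genes of the Dlk1-Dio3 region on chromosome 12 had the largest falls. Meg3 was at 0.883 to 2.74 CPM (median 1.49) in serum and at 74.7 and 97.2 CPM in FL (log2 fold change -5.71 ± 0.27, adjusted p = 1.0e-05). Rian was at 2.02 to 6.82 CPM (median 4.02) against 375 and 418 CPM (log2 fold change -6.57 ± 0.36, adjusted p = 1.5e-05). Mirg was at 0.126 to 1.17 CPM (median 0.65) against 62.9 and 90.9 CPM (log2 fold change -6.89 ± 0.37, adjusted p = 1.4e-05). All 3 are read from the maternal copy of 1 region, so they are not independent, and loss of this RNA is known in some mouse stem cell lines. Dlk1, read from the paternal copy, was 0.41 ± 0.33, adjusted p = 0.33. The line and the culture cannot be told apart here.

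Elsewhere, Peg12 was at 0.757 to 2.07 CPM (median 1.31) in serum and at 29.4 and 19.7 CPM in FL (log2 fold change -4.15 ± 0.30, adjusted p = 3.9e-05), and Nnat was at 10.2 to 13 CPM (median 11.7) against 1.16 and 0.715 CPM (log2 fold change 3.63 ± 0.25, adjusted p = 3.3e-05). Peg3, a zinc finger gene, rose (1.58 ± 0.16, adjusted p = 1.8e-04) while Usp29, which shares its promoter region, fell (-2.37 ± 0.31, adjusted p = 5.4e-04). H19 was at 6.87 to 16.6 CPM (median 11) against 4.56 and 8.06 CPM and overlapped (log2 fold change 0.84 ± 0.26, adjusted p = 0.029, which was 0.090 without collection 3, 0.18 without FL 1 and 0.14 with collection as a random block), and its neighbour Igf2 was 2.22 ± 0.37, adjusted p = 0.0017. Nespas and Zrsr1 overlap other genes, and whether counting used the strand is not given here.

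Most matrix genes rose, and 4 of the 18 are also feeder markers. In all 14 rose, 12 over 2-fold, and none fell (77.8%, median 1.73). Of the 18, 8 lie on chromosomes 1, 8 and 14, whose genes were mostly higher in serum. With each chromosome centred on its own median, 12 rose and 1 fell. Fn1, on chromosome 1, had a log2 fold change of 1.51 and a centred value of 0.97 (adjusted p = 6.2e-04). Col1a2 was at 8.23 to 37.9 CPM (median 30.3) in serum and at 0.0894 and 0.385 CPM in FL (log2 fold change 6.78 ± 0.68, adjusted p = 1.6e-04). Its partner chain Col1a1 was at 4.76 to 19.8 CPM (median 18) against 2.77 and 1.21 CPM (log2 fold change 2.88 ± 0.55, adjusted p = 0.0034). Acta2, the smooth muscle actin of activated fibroblasts, had 3 counts in both FL libraries together and was at 0.378 to 7.61 CPM (median 3.0) in serum (76.4-fold with a 95% counting interval of 26 to 371, adjusted p = 0.0024, which was 0.072 with collection as a random block). Thy1 was at 5.24 to 8.06 CPM (median 6.58) against 2.92 and 2.04 CPM (log2 fold change 1.42 ± 0.26, adjusted p = 0.0029). Collection 1 held the lowest values of Col1a2 and Acta2, as it did of the summed markers. The summed level of the whole matrix list was 3438 to 4396 CPM in serum and 2280.4 and 2178 CPM in FL. Its lowest serum value was that of the GFP-negative library of collection 2, and the part of feeder RNA in this sum was not tested. Fibronectin (Fn1) and perlecan (Hspg2), which stem cells also make, were at 1137 to 1708 CPM (median 1458) and 375 to 584 CPM (median 435) in serum and at 504 and 511 CPM and 125 and 126 CPM in FL. Of the feeder markers, 18 rose without collection 1, 15 without collection 2 or collection 3, and 16 without either FL library.

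Blood cell markers were low in both sets. Lyz2, a lysozyme of macrophages, was at 0.694 to 15.2 CPM (median 11.1) in serum and at 0.0298 and 0.11 CPM in FL (log2 fold change 6.86 ± 1.45, adjusted p = 0.0054, which was 0.11 with collection as a random block), and its 2 low values were those of collection 1. Of 8 blood markers tested, 3 rose and 1 fell (1 rise without collection 2, collection 3, FL 1 or FL 2 and 0 falls without collection 2, collection 3 or FL 2), and the summed level of the list of 11 was 17.5 to 33.4 CPM in serum and 16.1 and 12.1 CPM in FL, without overlap. A shorter list of 6 without Lyz2 summed to 10.3 to 16.6 CPM in serum and 14.1 and 9.2 CPM in FL, and overlapped. Hbb-bt was at 0 in every library and Hba-a1 in every serum library. The antigen presentation gene H2-K1 was at 32.9 to 43.2 CPM (median 37.8) against 8.26 and 7.43 CPM (log2 fold change 2.3 ± 0.15, adjusted p = 2.6e-05), and B2m, its light chain, at 16.4 to 23.1 CPM (median 19.6) against 8.17 and 7.95 CPM (log2 fold change 1.27 ± 0.17, adjusted p = 6.4e-04). The paralog H2-D1 was -0.54 ± 0.19, adjusted p = 0.042, which was 0.061 without collection 1, 0.12 without collection 2, 0.21 without FL 1 and 0.086 without FL 2. Alleles of these genes differ between strains, which can change how reads map. Over the list of MHC and interferon genes, 10 of 17 rose and 4 fell (5 rises without FL 1 or FL 2).

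Whole chromosomes differed between the sets. The median log2 fold change over the tested genes of a chromosome was 0.54 on chromosome 1 (1.45-fold), 0.44 on chromosome 8 (1.36-fold) and 0.54 on chromosome 14 (1.45-fold). It was -0.98 on the X chromosome (1.97-fold lower in serum), and between -0.12 and 0.02 on each of the other 16 autosomes. On chromosome 1, 433 of 748 genes rose and 62 fell. On chromosome 14, 274 of 448 rose and 29 fell, and on chromosome 8, 374 of 716 rose and 61 fell. On the X chromosome 360 of 483 fell (74.5%) and 22 rose. The chromosome medians of single serum libraries were 0.477 to 0.576 for chromosome 1, 0.37 to 0.499 for chromosome 8, 0.523 to 0.581 for chromosome 14 and -1.064 to -0.976 for the X chromosome. All 6 serum libraries showed all 4 shifts. Copy number was not measured.

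**Figure D5:**
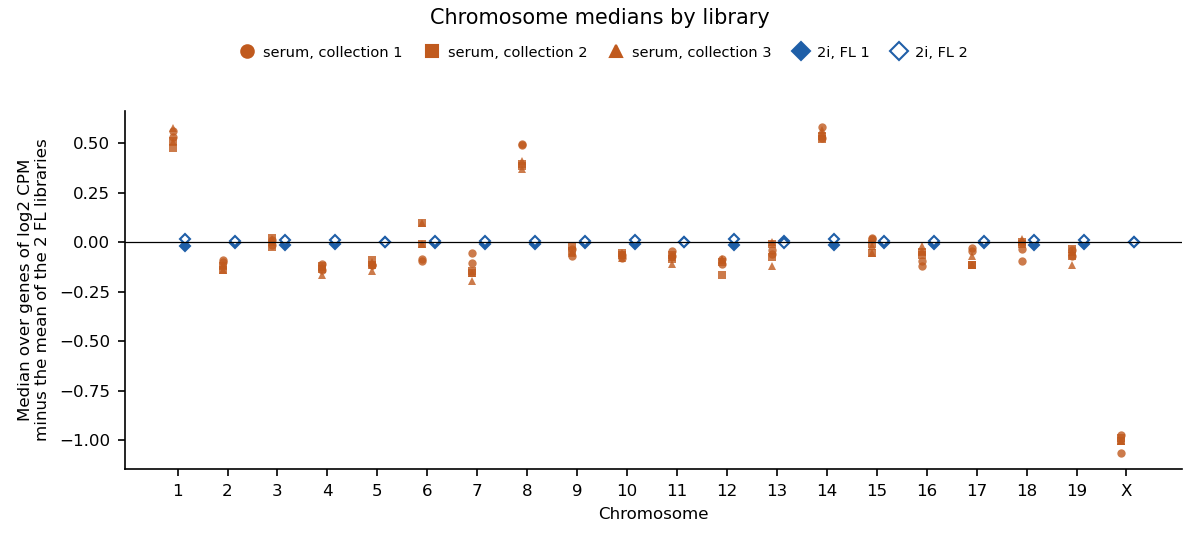
Median over the tested genes of each chromosome of log2 CPM minus the mean of both FL libraries, with 1 point per library (serum in orange by collection, FL in blue). Chromosomes 1, 8 and 14 lie at 0.37 to 0.581 and the X chromosome at -1.064 to -0.976 in the 6 serum libraries, while the other chromosomes stay near 0.

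Housekeeping genes of the X chromosome had log2 fold changes on both sides of its median. Hprt was at 104 to 137 CPM (median 130.0) in serum and at 270.4 and 260.3 CPM in FL (log2 fold change -1.07 ± 0.10, adjusted p = 1.5e-04). Eif2s3x was at 76.5 to 101 CPM (median 81.1) against 193 and 198 CPM (log2 fold change -1.2 ± 0.12, adjusted p = 1.4e-04). Rpl10, the one ribosomal protein gene of the list that fell, was at 416 to 552 CPM (median 488) against 941 and 1042 CPM (log2 fold change -1.02 ± 0.12, adjusted p = 3.3e-04). Centred on their chromosome these were -0.09 (adjusted p = 0.54), -0.22 (adjusted p = 0.16) and -0.04 (adjusted p = 0.81), in the same order. Pgk1, a glycolytic kinase gene, fell by more than the median (log2 fold change -1.57, centred -0.59 (adjusted p = 0.047)), as did Ndufa1 of respiratory complex I (-1.45, centred -0.47 (adjusted p = 0.014)). The RNA helicase gene Ddx3x (-0.36, centred 0.62 (adjusted p = 0.010)) and the ubiquitin ligase gene Huwe1 (-0.38, centred 0.6 (adjusted p = 0.022)) were not called before centring. Xist, the RNA that coats an inactive X, was low in both sets, at 0.252 to 2.23 CPM (median 1.17) against 2.65 and 4.48 CPM (log2 fold change -1.61 ± 0.58, adjusted p = 0.049, which was 0.11 without collection 2, 0.066 without FL 1 and 0.25 without FL 2).

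Y-linked genes were read in serum and hardly in FL. Ddx3y was at 0.189 to 1.02 CPM (median 0.511) in serum and had no count in either FL library (at least 13.2-fold, adjusted p = 0.0016, against 3 counts over both). Uty had no count in FL either (at least 7.59-fold, adjusted p = 0.042, which was 0.12 without FL 1, 0.13 without FL 2 and 0.097 with collection as a random block). Eif2s3y had 1 count in FL and was at 0.19 to 1.52 CPM (median 0.409) in serum (46.3-fold with a 95% counting interval of 8.16 to 1842, adjusted p = 0.0057, which was 0.070 with collection as a random block). The levels in serum were low and differed between libraries, and the sex of the lines and of the feeders is not recorded. With each chromosome centred on its own median, 3886 genes rose (22.1%) and 3905 fell (22.2%). The ERK list then had 16 rises and 2 falls, the germline list 2 and 12, the two-cell-like list 0 and 13, and the fatty acid list 0 and 9. The DNA methylation list had 2 and 5, the primitive endoderm list 10 and 1, and the ribosomal protein list 3 and 0 in place of 6 and 1. The list of S and G2/M phase, with 4 of its 20 genes on chromosomes 1, 8 and 14, had 3 and 4 in place of 5 and 7. In the uncentred test the 6 rising ribosomal protein genes were 0 without FL 1 and 2 without FL 2.

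The 12 largest rises and 12 largest falls were taken among called genes that averaged 1 or more in log2 CPM and did not overlap between the sets, with 1 gene per near-identical family and no clone-named genes. Genes outside these limits, such as Ddx3y and Zscan4b, had larger fold changes than some of them. Besides Col1a2, Egr1, Egr2, Olig2 and Lyz2, the rises held the feeder genes Postn, Lox and Col3a1 and the matrix genes Mmp3 and Bgn. Postn, an adhesion protein of fibroblasts, had 3 counts in FL and was at 0.757 to 10.7 CPM (median 7.49) in serum (139-fold with a 95% counting interval of 47.6 to 677, adjusted p = 0.0037, which was 0.070 with collection as a random block). The peptide transporter gene Slc15a2 was at 11.3 to 16.1 CPM (median 14.2) against 0.0894 and 0.138 CPM (log2 fold change 6.9 ± 0.32, adjusted p = 9.1e-06). The circadian repressor gene Per2 was at 4.16 to 7.14 CPM (median 6.03) against 0.0298 and 0.0825 CPM (log2 fold change 6.61 ± 0.47, adjusted p = 3.7e-05). Postn was lowest in collection 1, as was Col1a2, whereas Slc15a2 was not.

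Among these 12 falls, 3 lie on the X chromosome. Pnma5, a paraneoplastic antigen gene, was at 0.767 to 1.28 CPM (median 1.02) in serum and at 175 and 162 CPM in FL (log2 fold change -7.33 ± 0.17, adjusted p = 1.9e-07). Fmr1nb, a testis antigen gene, was at 0.0384 to 0.203 CPM (median 0.136) against 46.9 and 43.2 CPM (log2 fold change -8.45 ± 0.18, adjusted p = 1.9e-07). Rhox1, of a reproductive homeobox cluster, was at 0 to 0.115 CPM (median 0) against 7.09 and 5.72 CPM (log2 fold change -7.55 ± 0.51, adjusted p = 3.0e-05). The 3 falls exceeded the shift of the X chromosome many times over. Dnajc5g, a J-domain gene of the testis, was at 0 to 0.0631 CPM (median 0.014) against 13.1 and 11.2 CPM (log2 fold change -9.02 ± 0.44, adjusted p = 1.1e-05). Eno1b, a retrogene copy of enolase, was at 0.946 to 1.94 CPM (median 1.13) against 179.9 and 170.2 CPM (log2 fold change -7.16 ± 0.14, adjusted p = 1.9e-07), and it may share reads with its parent gene. The neuronal adhesion gene Nlgn1 had 3 counts in serum and was at 3.76 and 7.65 CPM in FL (367-fold with a 95% counting interval of 125 to 1785, adjusted p = 7.2e-05). Fkbp6, Mirg, Zscan4d, Tmem92 and Zfp352 are given above, and Pramef25 was at 0 to 0.115 CPM (median 0.0338) against 7.87 and 11.8 CPM (log2 fold change -7.77 ± 0.55, adjusted p = 3.5e-05).

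Of 15 genes of the mitochondrial genome, 10 were tested and 8 of these rose. The genes mt-Nd4l, mt-Co2, mt-Co3, mt-Atp6 and mt-Atp8 were too low to test. The 2 not called were mt-Rnr2 (log2 fold change 0.29 ± 0.18, adjusted p = 0.22) and mt-Co1 (0.34 ± 0.14, adjusted p = 0.066). One of the rising genes, mt-Nd3, had 372 counts in serum and 1 count in FL. The part of read mapping in these counts was not tested. The complex I gene mt-Nd2 was at 172 to 337 CPM (median 247) in serum and at 121 and 122 CPM in FL (log2 fold change 1.08 ± 0.14, adjusted p = 4.7e-04). Nuclear genes of oxidative phosphorylation did not follow, with 3 of 21 rising and 4 falling (1 rise without FL 1, 2 falls without collection 3 or FL 1 and 1 fall without FL 2). The nuclear noncoding RNA Neat1 was at 84 to 308 CPM (median 227) against 78.7 and 106 CPM and overlapped (log2 fold change 1.17 ± 0.21, adjusted p = 0.0027, which was 0.078 with collection as a random block). With the GFP-negative libraries only its adjusted p was 0.0995. Across 12334 protein-coding genes, the log2 fold change had a Spearman correlation of 0.148 with exon length, given as a description of these libraries. Its median was -0.156 among the shortest of 5 equal groups of genes and 0.164 among the longest.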

How the data were processed

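Raw gene counts of 39179 genes were taken from the authors' deposited count table. Per the submitters' processing notes, build mm10 (GRCm38.p4) was used with featureCounts 1.4.6, STAR 2.4.1d, DESeq2 1.6.3, CASAVA 1.8.2 and FastQC 0.11.3. Whether counting used the strand is not given here. Per the labels' protocols, libraries were stranded total RNA after removal of ribosomal RNA. The deposited TPM values, a signal normalised by the authors, equal (count + 1) divided by gene length, scaled per library, and served only as alternatives, tested with limma 3.58.1.

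Counts of the 2 sorted fractions of each collection were summed, because their deviations from the group means correlated at 0.718 to 0.808. The 3 sums were compared with 2 FL libraries in edgeR 4.0.16 (R 4.3.3; TMM scaling, filterByExpr with a minimum count of 10 and a total of 15, quasi-likelihood test, Benjamini-Hochberg adjustment over 17552 genes). The fit was also run on simulated counts with few changed genes and no shift of whole chromosomes. That setting differs from these data, so the run does not test the calls made here. Library totals of 25862573 to 37079106 counts make counting error small except in genes near 0, for which a ratio of pooled counts with an exact 95% interval, or a bound from 3 counts, is given. Intervals cover counting error only.

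The genes named are the 12 largest rises and 12 largest falls of called genes that averaged 1 or more in log2 CPM and did not overlap between the sets, called members of each list with the smallest adjusted p, members needed to say what a list did, and a fixed set of culture genes. The comparison, the lists and these genes were chosen with earlier results of these data known. Fut4 was named because its enzyme can make the sugar used in the sort. Of the 22 alternatives run, 2 (autosomal genes only, and each chromosome centred on its median) were chosen after seeing the data of this comparison. Gene positions follow GENCODE M21 (37607 genes matched), and promoters follow RefSeq (GRCm38.p6), using the first of several windows where a gene has more than 1.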

Additional observations from a re-analysis of the deposited data

How the results depend on the processing

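The 4179 genes higher and 4328 lower in serum stayed within 1.5 times of these counts under 17 of the first 20 alternatives (all but the test against a 2-fold change and leaving out either FL library), and no called gene was called in the opposite direction under any of these 20. A test against a 2-fold change called 1073 higher and 1319 lower genes. Leaving out 1 collection or FL library gave 2558 to 4593 higher and 2802 to 4593 lower genes, and 1805 to 2417 higher and 1846 to 2293 lower genes over 2-fold. Without an FL library that set has 1 sample, which is assumed to vary like the serum collections. Counts of genes over 2-fold higher were 1048, 1519 and 1030 with limma on log2(TPM + 1), log2(TPM + 0.1) and log2(TPM + 1) without a filter, and the lower counts were 1228 and 1282 on log2(TPM + 1) with and without the filter. They were 1488 lower with a filter of 1 CPM in 2 samples. The pseudocount shrinks fold changes of low genes, and the stricter filter tests fewer genes. Other causes were not tested.

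With the replicate number as a block over the 8 libraries, 4768 genes were higher and 5032 lower. The same number in a serum and an FL library does not mark a shared source, and the correlations of their deviations were -0.002 (number 1) and -0.043 (number 2), so the block is not read as pairing. Centring each chromosome, chosen after seeing the data, turned Bmpr1a to -0.14, Nop58 to -0.12 and Rrs1 to -0.085, and Nr0b1 to 0.93, Ddx3x to 0.62, Huwe1 to 0.60 and Porcn to 0.036. Tie1 was at -4.07 without FL 1 and turned to 0.78 without FL 2. Over all genes, centring each chromosome called 1 higher and 27 lower genes in the opposite direction. With GFP-negative libraries only, 8 named genes lost their call (Apcdd1, Bmpr1a, Dnmt1, Ehmt2, Gata6, H2-D1, Neat1 and Tbx3), with GFP-positive libraries only 3 (H19, Mycl and Xist), and with DESeq2 2 (Evx1 at an adjusted p of 0.085 and Tie1 at 0.0597). Of the 193 called genes named, 105 kept their call under every alternative that tested them, the test against a 2-fold change included. The scalings moved the median of all genes by at most 0.05.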
